A study of Aedes aegypti with 6 samples.

Results

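Adult-only genes of the mosquito Aedes aegypti are described here: genes that were well counted in adults from every collection site and nearly absent from larvae of every site. A gene was chosen when it reached at least 20 CPM (counts of a gene per 1000000 gene counts of the same library) in each of 3 adult libraries and stayed at or under 1 CPM in each of 3 larval libraries. Of 19804 gene identifiers, 8892 had a count in some library and 18 met the rule. The rule also names 13 identifiers to leave out, and 0 of them met both thresholds. Since the genes were chosen by their CPM in these same 6 libraries, the gap between the stages is given as a description and supports nothing.

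Whole bodies of larvae and adults were collected at locations 1, 2 and 3 in Eastern India, which the labels call collection sites K1, K3 and C. Each library was made from the total RNA of a pool of 10 mosquitoes, with 1 larval and 1 adult library per location, so each stage had 3 libraries and each stage at a location had 1. The labels name no strain, adult sex, blood meal or larval age. Gene counts per library ranged from 12049243 to 18328454 in larvae and from 3271618 to 10450701 in adults. Reads that aligned to several places took 36.0% to 62.2% of the adult reads and 11.5% to 16.2% of the larval reads, and such reads were counted for no gene. The tables hold gene identifiers without names, 0 of the 18 matched the reference table, and no role is given to any of them. For the same reason the stage labels could not be set against marker genes.

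A mosquito larva lives in water and feeds by filtering or grazing, while the adult flies, mates, drinks sugar and, in females, takes blood. At metamorphosis many larval tissues break down, and flight muscle, compound eyes, antennae, salivary glands and reproductive organs of the adult form take shape. In a whole body, RNA found in adults and not in larvae can therefore come from organs that only the adult has, or from organs shared by both stages. In such pooled whole bodies, fewer cells of a type and less RNA per cell cannot be told apart.

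The 18 genes were a small part of what adults expressed. Of 776 genes that reached 20 CPM in all 3 adult libraries, they were 2.32%, and 607 of the others also reached 20 CPM in all 3 larval libraries. Together the 18 took 0.568%, 0.904% and 0.482% of all gene counts from adults at locations 1, 2 and 3, a mean of 0.651% ± 0.223 (SD, n = 3). In larvae they had 13, 43 and 15 counts in the same order of locations. Requiring all 3 adult pools narrowed the group. A further 11 genes at or under the larval ceiling passed the adult floor in 2 of the 3 adult libraries, and 33 passed it in 1.

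**Figure D1:**
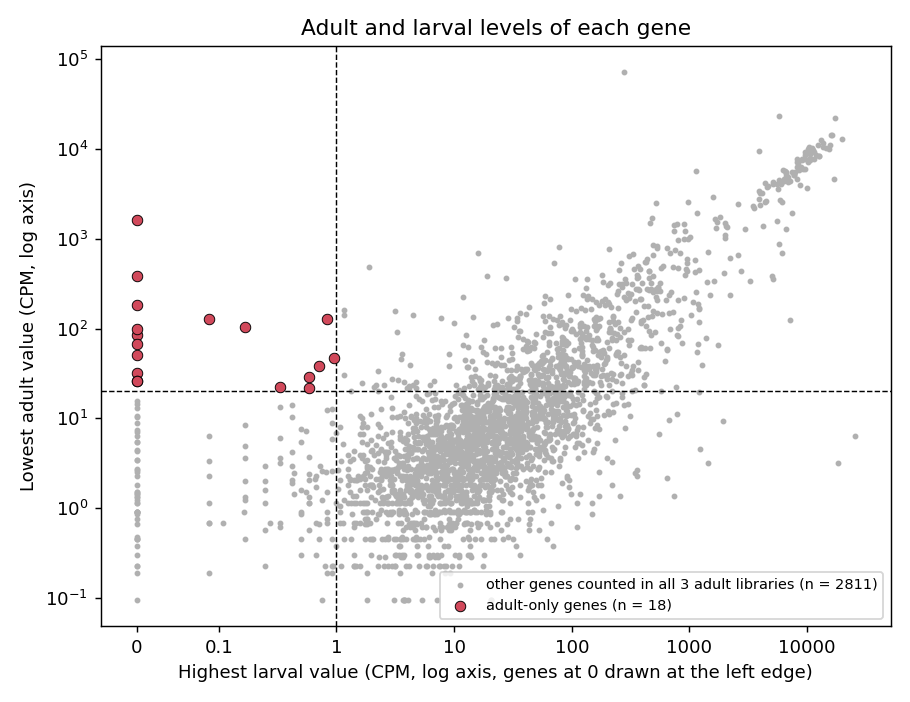
Each point is a gene counted in all 3 adult libraries, with its highest larval value on the horizontal axis and its lowest adult value on the vertical axis, both in CPM on log axes. Dashed lines mark the ceiling of 1 CPM and the floor of 20 CPM, the 18 adult-only genes (red) fill the upper left corner, and genes at 0 in larvae are drawn at the left edge.

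Adult levels of the 18 genes covered a wide range. AAEL017262 was the most abundant, at 2595, 4922 and 1611 CPM in the adults of locations 1, 2 and 3 and at 0 counts in all 3 larval libraries. It ranked 99, 62 and 108 among all genes of those adult libraries. It took 45.7%, 54.4% and 33.4% of the counts of the 18 genes, so a sum over the group is largely this 1 gene. The mean adult level ran from 27.5 CPM for AAEL027052 to 3043 CPM for AAEL017262, with a median of 156 CPM. The other 758 genes past the adult floor had a median of 118 CPM. A mean above 100 CPM was found for 10 of the 18, and 6 lay above 100 CPM in each adult library.

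AAEL019798 was at 389, 642 and 840 CPM in the adults of locations 1, 2 and 3, and AAEL019797 at 183, 249 and 292 CPM, both with 0 larval counts. Both were lowest at location 1 and highest at location 3. AAEL019798 held 2.12, 2.58 and 2.88 times the CPM of AAEL019797 in the same order, which compares counts and not molecules, since transcript lengths were not used. Their identifiers are adjacent numbers, and the files say nothing of how the genes relate.

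A larval count of 0 was found for 10 of the 18 genes, and it allows up to 0.218, 0.249 and 0.164 CPM (3 counts) in the larvae of locations 1, 2 and 3. Against 3 counts spread over the 3 larval libraries, these 10 were at least 392-fold (AAEL027052) to at least 43417-fold (AAEL017262) higher in adults. AAEL026304, AAEL024549, AAEL001390, AAEL022695, AAEL009680 and AAEL003035 lay between them with AAEL019798 and AAEL019797. These bounds cover counting error only, as do all intervals given here, because amplified reads are not independent molecules.

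The other 8 genes had 71 larval counts in all, and most of these were in 1 library. The larvae of location 2 held 43 of the 71, spread over all 8 genes. The larvae of location 1 had counts for 1 of the genes and the larvae of location 3 for 2. The larvae of location 2 also had a count for more genes of the whole table, 7807 against 5117 and 6230 at locations 1 and 3, although their gene counts were the fewest of the 3 larval libraries. Whether that wider detection has a part in these counts was not tested. AAEL013612 had 0, 8 and 13 counts in the larvae of locations 1, 2 and 3, the most in all, and 61.8, 38.5 and 67.4 CPM in adults, a ratio of stage means of 122. AAEL017334 had 13, 4 and 0 larval counts, with adults at 47.7, 56.5 and 90.8 CPM and a ratio of 153.

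Over the 6 genes with more than 3 larval counts, the ratio of stage means ran from 122 to 931. The highest was that of AAEL029104, whose 7 larval counts were all at location 2. AAEL001704 had 10 larval counts, all at location 2, and a ratio of 784. AAEL000897 had 4 there and a ratio of 463, and AAEL011492 had 7 at location 2 and 2 at location 3 and a ratio of 149. With 1 larval count, AAEL003259 had a pooled adult to larval ratio of 31504 (exact 95% interval 5653 to 1244420). With 2, AAEL017563 had a pooled ratio of 3583 (991 to 29601). No adult value of the 18 genes overlapped a larval one, which the rule itself fixes.

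**Figure D2:**
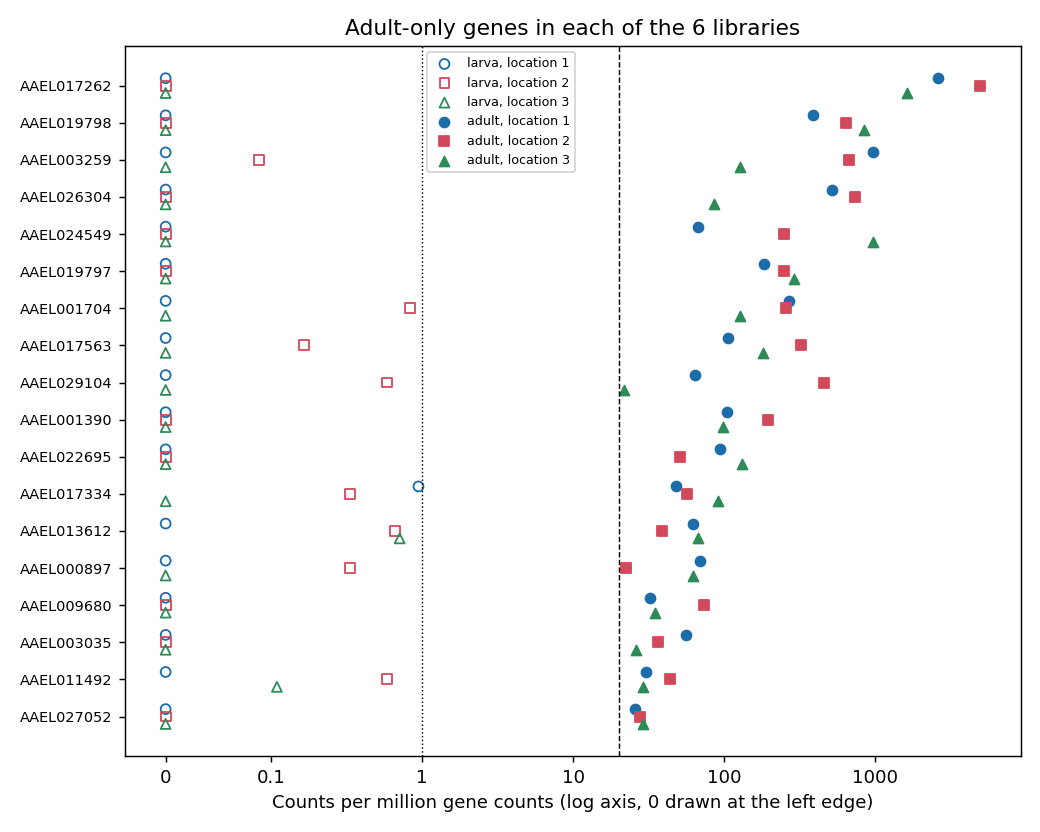
CPM of the 18 adult-only genes in each library on a log axis, with larvae as open and adults as filled symbols, 1 shape and colour per location, and values of 0 at the left edge. The dotted and dashed lines mark 1 and 20 CPM, and the open red squares show the larvae of location 2, the library with counts for 8 of the genes.

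Genes near the thresholds had these values. Just inside the adult floor, AAEL029104 had a lowest adult value of 21.8 CPM, AAEL000897 of 22.3 CPM and AAEL027052 of 25.8 CPM. Just outside it, AAEL010269 fell to 15.8, AAEL012098 to 14.4 and AAEL006537 to 14.0 CPM. At the larval ceiling, AAEL017334, AAEL001704 and AAEL013612 reached 0.945, 0.830 and 0.709 CPM. Just over it, AAEL017144 and AAEL011981 both reached 1.16 CPM, as did AAEL009695. AAEL017144 is as abundant as the upper members, at 686, 838 and 161 CPM in adults, and was left out for 14 counts in the larvae of location 2.

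In the test between the stages, edgeR (quasi-likelihood test, p adjusted by Benjamini-Hochberg over 5030 genes) called all 18 of them higher in adults, with adjusted p from 0.000284 to 0.0112. Of all genes tested, 3.14% were called higher in adults. The rule used this same contrast, so the count is given beside that background and nothing is read from it.

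The locations are a contrast the rule did not use, apart from its floor of 20 CPM in each adult library and its ceiling of 1 CPM in each larval library. The adult levels of several of the 18 genes differed widely between locations, and no single location was high for the group. The highest adult value was at location 1 for 4 genes, at location 2 for 7 and at location 3 for 7. Among the other 758 genes past the adult floor, 26.4%, 42.3% and 31.3% were highest at locations 1, 2 and 3. The lowest value was at location 1 for 7 genes, at location 2 for 3 and at location 3 for 8, against 36.7%, 31.5% and 31.8% of the others. With 1 adult pool per location, a difference between locations cannot be told apart from a difference between pools.

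Ratios above 5 were found for 4 genes. AAEL003259 was at 971 and 674 CPM in the adults of locations 1 and 2 and at 127 CPM at location 3, a ratio of 7.67 between its highest and lowest value. AAEL026304 had the same low library, with 516 and 730 CPM at locations 1 and 2 and 85.1 CPM at location 3, a ratio of 8.58. AAEL024549 went the other way. It was at 67.1, 248 and 972 CPM at locations 1, 2 and 3, so its highest value was 14.5 times its lowest (exact 95% interval of counting 13.4 to 15.7). AAEL029104 was high at location 2 alone, with 455 CPM there, 63.6 at location 1 and 21.8 at location 3. Its ratio of 20.9 was the widest of the 18, and the value at location 3 rests on 95 reads.

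A ratio under 2 was found for 6 genes, counting both strands and without TMM scaling of the library totals. With TMM scaling the ratio was 2.29 for AAEL013612, which is among the 6. It was 1.68 for AAEL009680, which is not. AAEL027052 was at 25.8, 27.5 and 29.1 CPM at locations 1, 2 and 3, a ratio of 1.13. Between its lowest and highest library the counting interval of that ratio, 0.906 to 1.40, includes 1. Its 2 strands did not move together, since forward reads gave 38.1, 18.9 and 42.8 CPM and reverse reads 11.7, 37.6 and 12.9 CPM, each per total of that strand. AAEL011492 was at 30.2, 43.7 and 28.9 CPM, a ratio of 1.51. Its values at locations 1 and 3 differed by less than counting error, with location 3 at 0.956 times location 1 (0.771 to 1.18). AAEL019797, AAEL013612 and AAEL017334 had ratios of 1.59, 1.75 and 1.91. AAEL001390 was at 104, 193 and 97.7 CPM, a ratio of 1.98. On reverse reads alone the highest value was 3.89 times the lowest for AAEL013612 and 3.13 times for AAEL001390, against 1.22 and 1.32 on forward reads.

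The remaining genes lay between these. AAEL017563 was at 105, 322 and 180 CPM at locations 1, 2 and 3, and AAEL000897 at 69.2, 22.3 and 62.2 CPM. The first was highest at location 2 and the second lowest there, with ratios of 3.06 and 3.10. AAEL022695 was also lowest at location 2, at 93.3, 50.7 and 131 CPM. AAEL009680 was highest there, at 32.2, 73.7 and 34.9 CPM. AAEL001704 was at 267, 256 and 128 CPM and AAEL003035 at 56.2, 36.7 and 25.9 CPM, both lowest at location 3.

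**Figure D3:**
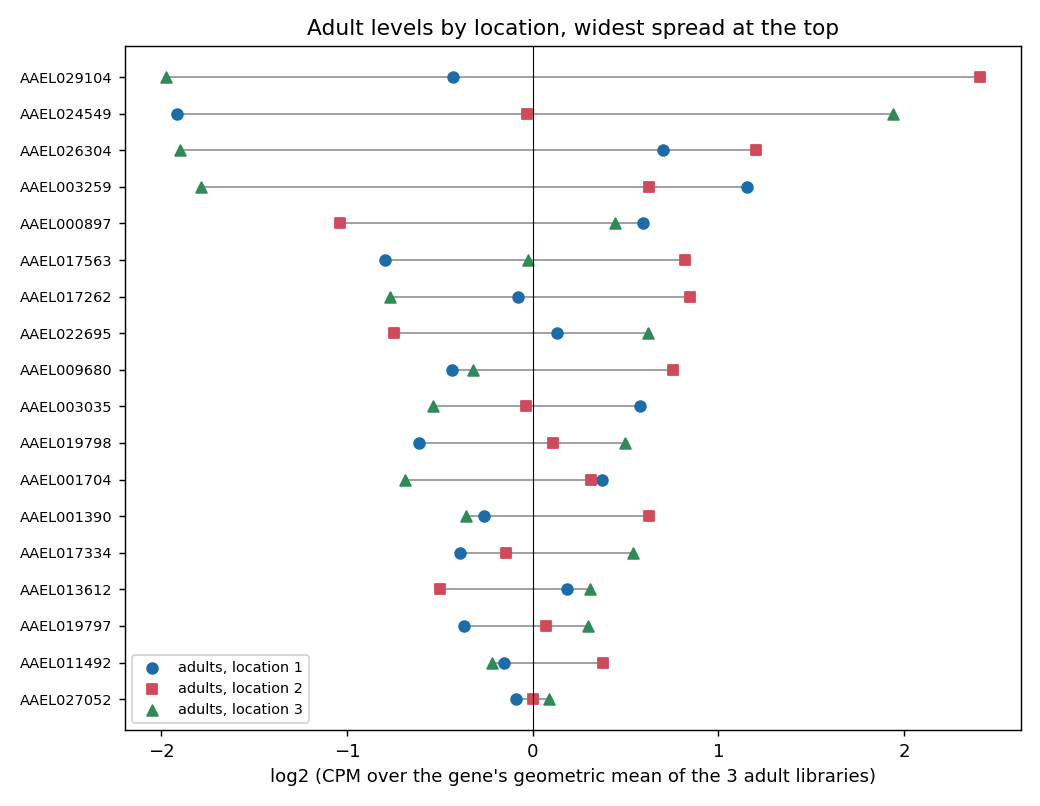
Adult level of each of the 18 genes at locations 1, 2 and 3 as log2 of its CPM over the gene's geometric mean of the 3 adult libraries, ordered by the ratio of the highest to the lowest value. The upper 4 genes have ratios from 7.67 to 20.9, with location 3 lowest in 3 of them and highest in AAEL024549, and the points of AAEL027052, counted over both strands, nearly coincide.

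Over the group, the spread between adult pools was as follows. The median ratio of highest to lowest adult CPM was 2.23 for the 18 genes and 1.86 for the other 758 genes past the adult floor. A ratio above 5 was found for 4 of the 18 and for 4.62% of the others. All 4 had a mean above 100 CPM, a range that held 10 of the 18. Of the other genes with such a mean, 407 in all, 6.88% had a ratio above 5. These shares are a description of 3 libraries, with 18 genes on one side and no test.

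**Figure D4:**
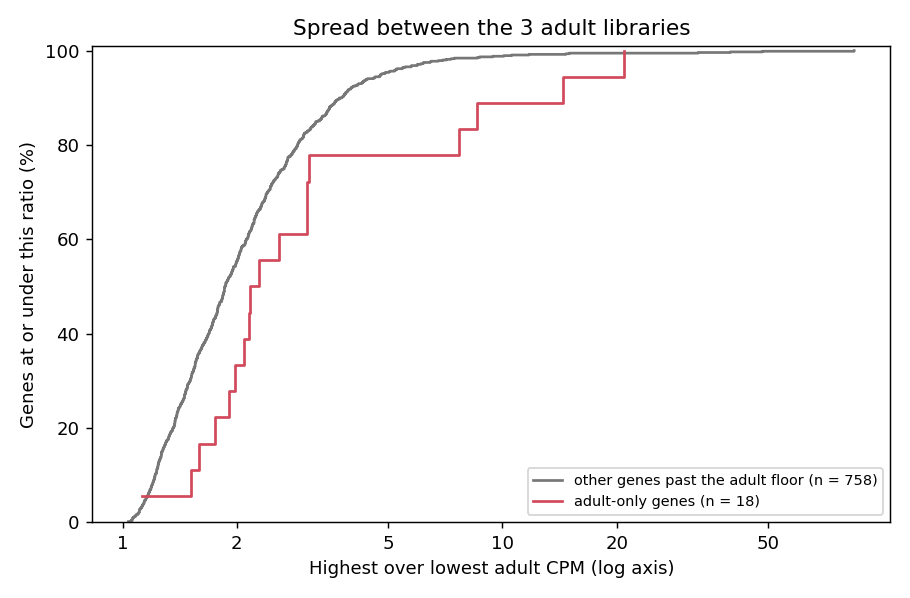
Cumulative share of genes (%) by the ratio of their highest to their lowest adult CPM, on a log axis, for the 18 adult-only genes (red) and the other 758 genes past the adult floor (grey). The medians are 2.23 and 1.86, and the red line stays flat from a ratio of 3.10 to 7.67, where no adult-only gene lies.

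Taken pair by pair, 5 of the 18 genes were over 2-fold apart in CPM between the adults of locations 1 and 2, where 28% of the other genes past the floor were. Between locations 1 and 3 the number was 7, against 17.2% of the others. Between locations 2 and 3 it was 9, against 26.9%, with 6 of the 9 higher at location 2. The count for locations 1 and 2 was 10 when the reverse-strand column was used.

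The test of locations, with stage as a covariate and all 6 libraries, called 0 of the 18 genes between any 2 locations. It had at most 2 residual degrees of freedom, so a lack of calls does not show equal levels. For the 10 genes with no larval count, AAEL024549 and AAEL026304 among them, the larval libraries hold no information on location. Their p-values compare 1 adult pool with 1 other, using a spread borrowed from other genes. They are not read as differences between locations. Among 5030 genes fitted by edgeR, the share called was 0% for locations 1 and 2, 0% for locations 1 and 3 and 0.0795% for the pair of 2 and 3. At an unadjusted p under 0.05 the numbers were 1, 3 and 5 of the 18 genes, against 2.13%, 1.93% and 2.60% of all genes. DESeq2 also called 0 of the 18 in each of the 3 comparisons. The smallest adjusted p, 0.157, was that of AAEL029104 between locations 2 and 3 (log2 fold change -4.56 at location 3, lower there in both stages, with 0 against 7 counts in larvae). It passed with no low-count filter (0.00307), without larva replicate 1 (0.0102) and without adult replicate 1 (0.0115). It reached 0.380 without larva replicate 2. AAEL001704 passed between the same locations without adult replicate 2 (edgeR adjusted p = 0.0174), but location 2 then holds no adult library and the call rests on 10 larval counts there against 0. The 3 comparisons share libraries. Each fit takes both stages together, so the few larval counts weigh in it. In adults AAEL000897 was 2.79 times higher at location 3 than at location 2, while its fitted log2 fold change was -0.71, with 0 against 4 counts in larvae.

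The strand of the reads was not used by the rule. The tables give a forward and a reverse column of counts, and over all genes 53.4% to 54.7% of the adult reads in these columns were in the forward one. For all 18 genes the forward and reverse columns added up exactly to the column for both strands, so no adult read of theirs was lost to an overlapping gene on the opposite strand. The same held for 87.7% of the other genes past the adult floor. AAEL024549 stood apart, with 87.7%, 84.4% and 84.2% of its reads in the forward column in the adults of locations 1, 2 and 3. Of the other 758 genes, 14 (1.85%) had at least 80% in all 3 adult libraries. AAEL017262, with 27121, 16102 and 7024 reads, lay at 54.3%, 52.1% and 51.2%.

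Strand shares of several genes, abundant ones included, moved between libraries by more than counting error. The abundant AAEL003259 had 48.6% forward reads (exact 95% interval 47.6 to 49.5) in the adults of location 1. At location 3 it had 37.5% (33.4 to 41.7). AAEL027052 had 78.9% (exact 95% interval 73.5 to 83.6), 37.8% and 79.5% forward reads in the adults of locations 1, 2 and 3, on 270, 90 and 127 reads. AAEL013612 had 44.7%, 77.8% and 50.7%, on 646, 126 and 294 reads. In the adults of location 2, which had the fewest gene counts, 7 of the 18 genes lay between 40% and 60%, against 13 and 14 at locations 1 and 3. Of the other genes past the floor, 64.4% lay in that range at location 2, against 81.5% and 82.3%. The ratio between the libraries of highest and lowest CPM then depends on the strand counted. For AAEL029104, location 2 over location 3, it was 27.7 from forward and 11.6 from reverse reads. For AAEL013612, location 3 over location 2, it was 1.16 and 3.83. For AAEL003259 it was 10.0 and 6.24, and for AAEL024549 13.8 and 18.9, so location 3 lay below location 1 for the first and above it for the second on both strands. Counting intervals between locations are therefore too narrow for these genes, the abundant ones included.

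**Figure D5:**
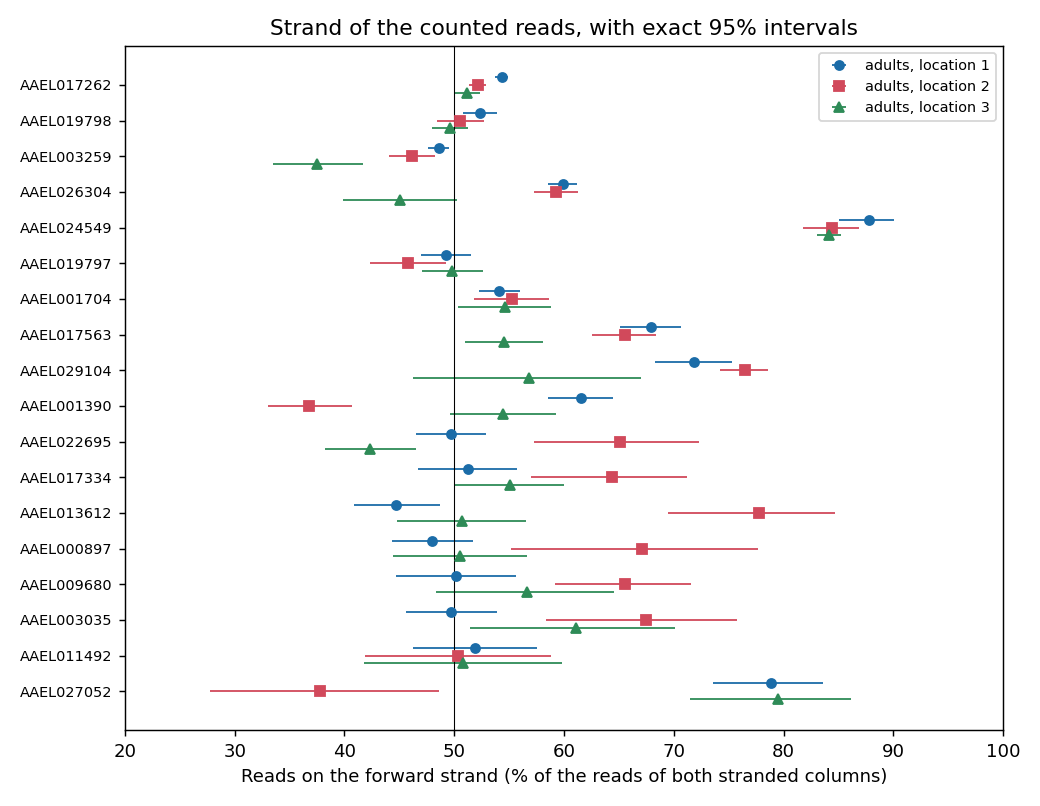
Share of reads (%) in the forward column for each of the 18 genes in the adults of locations 1, 2 and 3, with exact 95% intervals of counting. AAEL024549 lies above 84% in all 3. The adults of location 2 (squares) stand apart from the other 2 libraries for AAEL027052 and AAEL001390, where they are lower, and for AAEL013612 and AAEL022695, where they are higher.

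Reads that cross annotated introns give the same rule by position. Such reads were summed per gene of the RefSeq table of assembly AaegL5.0 when that gene alone contained the intron. Symbols, chromosomes, gene positions, gene types (protein-coding or other) and neighbours were taken from that table. With the same thresholds on junction CPM (junction reads per 1000000 such reads), 16 of 595 genes past the adult floor were adult-only, 2.69%. All 16 are protein-coding, but this share was not counted among the others, so nothing is read from it. The files do not pair these symbols with the 18 identifiers, so how far both sets hold the same genes is not known, and they come from the same libraries. Of the 16, 9 had no larval junction read, and the 21 larval reads of the other 7 were all in the larvae of location 2.

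The splice sites of these genes were of the usual kind. All 29 introns with reads had GT and AG at their ends, a share not counted for the other genes past the floor. Lengths of the 29 ran from 54 to 94322 bases with a median of 580, against 746 for 2080 introns of those other genes. Junction reads that mapped to several places were 1.33% of the adult reads of the 16 genes, against 7.28% over all genes. The 16 had to pass the floor on uniquely mapped reads and all genes did not, so part of this gap comes from the choice. LOC23687983 on chromosome 2 had 2 introns, from 205827585 to 205837028 and from 205837080 to 205837152 on the plus strand, as the files give positions. The genome build was not given in the sources used here. Its first intron was crossed by 1074, 926 and 757 adult reads at locations 1, 2 and 3 and its second by 1091, 954 and 769, so both were used about equally. In the larvae of location 2 each had 2 reads.

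Adult levels at the junctions also differed between locations. LOC5569002 on chromosome 3 had 873, 22 and 508 adult junction reads at locations 1, 2 and 3, or 236, 21.7 and 312 CPM, and nearly all crossed 1 intron of 29971 bases. LOC5565773 on chromosome 2 was at 25.4, 45.3 and 247 CPM, highest at location 3. LOC5577606 went the other way, at 2746, 2155 and 335 CPM. LOC110676152, with 270, 77 and 118 reads, was at 73.1, 75.8 and 72.4 CPM. LOC110677060 had 2587, 974 and 104 reads across its 1 intron, 700, 959 and 63.8 CPM. The median ratio of highest to lowest adult value was 2.97 for the 16 genes and 2.02 for the other 579 past the floor, and 4 of the 16 exceeded 5, against 9.33% of the others. Location 3 was lowest for 10 of the 16, against 34.7% of the others.

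Values of the other genes of the 16 follow. LOC5572260 and LOC5575401, next to each other on chromosome 3 with no protein-coding gene between them, had ratios of 1.34 and 1.90, and no other 2 of the 16 lay so close. LOC5567209 on chromosome 3 was at 136, 30.5 and 107 CPM. LOC5576671, LOC5575836, LOC5576882 and LOC5566774 are on chromosome 1, and their adult means ran from 31.3 to 51.0 CPM. LOC5565890 on chromosome 2 was the least abundant, at 22.5, 29.5 and 20.9 CPM, and its 3 introns had 13, 50 and 84 adult reads. LOC5576459 on chromosome 1 was at 252, 118 and 337 CPM, and LOC5571814 on chromosome 2 at 149, 171 and 62.6 CPM.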

How the data were processed

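The deposited gene tables hold counts per gene, not normalized, for both strands together, forward and reverse. In the deposited junction tables, counts per intron are split into uniquely and multiply mapped reads. The submitters' processing notes list STAR, edgeR, fastp, cutadapt and FastQC without versions. Genome build and gene annotation: not given in the sources used here. All tests leave out 4 summary rows. CPM is counts over the sum of gene counts, times 1000000, from the column for both strands.

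The fits used edgeR 4.0.16 under R 4.3.3 (TMM, filterByExpr on stage, glmQLFit, glmQLFTest), at an adjusted p under 0.05. All 18 genes passed the filter. DESeq2 1.42.0 was an alternative. The fits were checked on simulated counts. p-values of the stage test measure the spread between pools of different locations. Exact intervals (Clopper-Pearson, 95%) came from Python 3.11.15 with scipy 1.17.1. A median or share over genes has no test.

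Of annotated introns on the chromosomes, 99.97% lay inside a RefSeq gene, against 56.0% after a shift of 100000 bases. Lists by product name had no members, since the tables give no such names.

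Genes were named by rank of adult level, by highest or lowest ratio between adult libraries and by closeness to a threshold. The genes and lists were chosen with earlier results of these data known. Alternatives were other columns, scalings, thresholds and tests, a location block, and each library left out.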

Additional observations from a re-analysis of the deposited data

How the results depend on the processing

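The number of adult-only genes was 18, and it was 28 with an adult floor of 10 CPM, 10 with a floor of 50 CPM and 10 with no larval count allowed. It was 16 from the forward column and 13 from the reverse column, and these held 15 and 12 of the 18. With TMM-scaled totals it was 17, which held 16 of the 18. It was 20 to 26 with 1 library left out, with all 18 kept each time. The share of adult gene counts was 0.651%, and 0.0744% of all reads the tables account for. At 3-fold in place of 2-fold, 3 genes differed between locations 1 and 3 and 5 between locations 2 and 3, and the reverse column gave 10 between locations 1 and 2. The stage test called all 18 genes under all alternatives, the replicate block by location number included (18 called). The rule used the same contrast, so these calls were all but fixed in advance and nothing is read from them. For the block, the larva and adult libraries of a location did not deviate together (correlation across genes -0.0353 to 0.0161). Over all genes, 158 of 5030 tested were called higher in adults, and 352 of 5030 by the DESeq2 test. Without a low-count filter it was 294 of 8892. With 1 library left out it ran from 75 of 5493 to 128 of 5941. Between locations 2 and 3, 1 of the 18 was called with no low-count filter and 0 to 1 with 1 library left out. Over all genes that comparison called 4, and 9 with DESeq2 size factors, 7 with library totals, 49 with no filter, 1 with the forward column and 0 to 47 with 1 library left out. Locations 1 and 2 gave 0, and 1 with library totals, 21 with no filter and 0 to 18 with 1 library left out. Locations 1 and 3 gave 0, and 4, 25 and 0 to 26 in the same order, and 1 with DESeq2. The junction rule gave 16 genes, 8 with a floor of 50 CPM and 9 with no larval read. It gave 13 when multiply mapped reads were added to the uniquely mapped ones. The causes were not tested. The ratio of highest to lowest adult value, with alternatives chosen after seeing the data, moved past its counting interval for 10 of the 18 genes with TMM scaling, 9 with the forward and 12 with the reverse column. TMM factors of the adult libraries were 0.862, 1.17 and 0.896 at locations 1, 2 and 3. Scaling by them lowers the adult values of location 2 against those of locations 1 and 3. At 20 CPM a gene had 65.4 reads in the adults of location 2 and 209 in those of location 1, which limits the less abundant genes.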

Other observations

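AAEL003259 was counted 10149, 2206 and 552 times in adults at locations 1, 2 and 3 and 1 time in larvae. LOC5577606, singled out after its values were seen, had 10146, 2188 and 546 reads across its 1 annotated intron, from 366568480 to 366569536 on the plus strand of chromosome 2, and 1 larval read. It was not the only near pair. AAEL027052 had 270, 90 and 127 adult counts, and LOC110676152 had 270, 77 and 118 adult junction reads. The files do not pair identifiers with symbols, so whether either pair is 1 gene is not known here. The opposite rule, at least 20 CPM in every larval library and at most 1 CPM in every adult library, was met by 74 genes, with more gene counts per library in larvae than in adults.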
